A study of Mus musculus with 20 samples.

Results

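Mouse islet preparations that carried much acinar RNA were compared with preparations that carried less of it, across 20 RNA-seq libraries of pancreatic islets. Acinar RNA was scored in each library as the mean of log2(value + 1) over 4 digestive enzyme genes, Cpa1, Pnlip, Cela2a and Ctrb1. Within each genotype the 5 libraries with the highest score were called acinar-rich and the other 5 acinar-poor, which gave 10 acinar-rich and 10 acinar-poor libraries of the 20 in all. The 10 knockout libraries came from P2Y14-knockout mice and the 10 wild-type libraries from wildtype mice, all of the mixed strain C57BL/6 x 129S6. The sources used here do not give age, sex or which part of the receptor gene was deleted. Each pancreas was inflated with Liberase and digested for 17 min, and islets were picked by hand and cultured overnight, per the labels' protocols. All 20 libraries share these steps. Separate animals are not named in the labels, so p-values measure the spread between these libraries, which may be partly technical.

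Acinar cells make up most of the pancreas and secrete digestive enzymes, most of them as inactive precursors packed in zymogen granules. Islets are clusters of hormone-secreting endocrine cells embedded in that tissue, so digestion and picking leave some acinar cells and debris with them. A complex built on the factors Ptf1a and Rbpjl, together with Nr5a2, Gata4 and Bhlha15 (also called Mist1), keeps the enzyme genes on in acinar cells.

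The score was a continuum with no gap between the classes. In knockout islets it ran from 21.63 down to 20.63 in the acinar-rich and from 20.54 down to 17.82 in the acinar-poor libraries. In wild-type islets the acinar-rich libraries ran from 21.34 to 20.44 and the acinar-poor from 20.33 to 17.79. Knockout replicate 3, the highest of the acinar-poor knockout libraries, scored above 2 of the acinar-rich wild-type libraries. The values of the score genes chose the classes and are a description with no test. Cpa1, a carboxypeptidase, had a lowest, median and highest normalized read count of 891707, 1435900 and 2037880 in acinar-rich and of 138826, 355139 and 869226 in acinar-poor libraries. Pnlip, the pancreatic triglyceride lipase, had 1504420, 2445000 and 3761920 against 228060, 691932 and 1898240. Cela2a, an elastase, had 1337730, 2342480 and 3935380 against 253153, 756887 and 1552070. Ctrb1, a chymotrypsinogen, had 1667940, 3363400 and 4376860 against 314095, 937866 and 2179910. Only for Cpa1 did the classes stand apart, and by a narrow margin.

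The 48 genes of the secretory lists (the score genes, other proteases, the lipases, amylases and nucleases, and granule proteins) took 25.9% to 36.5% of all reads in acinar-rich libraries, with a median of 32.6%. In acinar-poor libraries they took 7.11% to 29.8%, with a median of 15.2%. The lowest share, 7.11%, was that of the library with the lowest score, wild-type library 12. Reads summed over genes ranged from 58245812 to 168991840 in acinar-rich and from 34520628 to 199847246 in acinar-poor libraries. The mean difference in depth, acinar-rich minus acinar-poor, was −6954151 reads (two-sided exact permutation test within genotypes, p = 0.734), and 3253963 without knockout replicate 4. P2ry14 (ENSMUSG00000036381), the targeted gene, was at 34.8 to 114 in acinar-rich and 0 to 57.2 in acinar-poor knockout libraries. Its normalized read counts in wild-type were 110 to 262 in acinar-rich and 79.7 to 124 in acinar-poor libraries, so the genotypes stood apart among acinar-poor libraries and overlapped narrowly among acinar-rich ones.

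**Figure D1:**
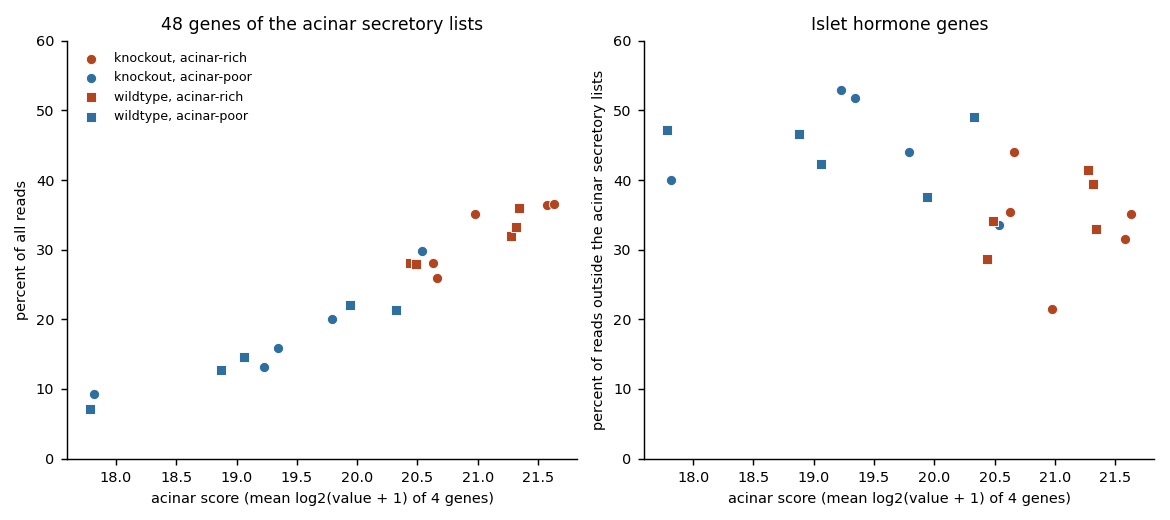
Each point is 1 library, circles knockout and squares wild-type, with the acinar score on the x axis (mean log2(value + 1) of the 4 score genes). The left panel gives the percent of all reads that fell on the 48 secretory genes, 7.11% to 36.5%; the right panel gives the percent of the remaining reads that fell on islet hormone genes, which is lower on average in the acinar-rich libraries.

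Because the classes come from sorting libraries on a measured level, an adjusted p says whether a transcript followed that sort. Genes that acinar cells themselves express had to follow it, and the genes of the acinar lists are therefore described here without their test. Differences are given as acinar-rich minus acinar-poor on the log2(value + 1) scale with genotype as a covariate, where 1 is a 2-fold difference. In bulk RNA, more cells of a type and more RNA per cell cannot be told apart.

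All 15 proteases tested beside the score genes were higher in acinar-rich libraries, with a median difference of 1.69 against −0.02 over all 17478 genes tested. Prss2, which encodes a trypsinogen, had normalized read counts of 795950 to 2109300 (median 1302400) in acinar-rich and of 144520 to 920160 (median 379800) in acinar-poor libraries. Of the 10 acinar-rich libraries, 6 lay above every acinar-poor one. Prss3, another trypsinogen, differed by 1.84, and the elastase gene Cela1 by 1.63. Tmprss15, the enteropeptidase that activates trypsinogen in the gut, was at 0 in all acinar-poor libraries and had a median of 0 in the acinar-rich, so its fitted difference says little. The trypsinogen and amylase genes are near-identical copies, and reads can be split between them or counted for several.

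Lipases, amylases and nucleases had a median difference of 1.64 over 11 genes, 10 of them higher. Pla2g1b, the secreted pancreatic phospholipase A2, ranged from 57307 to 115680 (median 83923) in acinar-rich and from 6602 to 70353 (median 24454) in acinar-poor libraries, a difference of 1.88. Cel, the bile salt-activated lipase, differed by 1.78. Amy1, an amylase, had medians of 11616000 in acinar-rich and 4724200 in acinar-poor libraries. The exception was the nuclease gene Dnase1, at 78.5 to 354 in acinar-rich and 146 to 271 in acinar-poor libraries, a difference of −0.29. Granule and secretion proteins had a median of 1.61 over 18 genes. Among them the syncollin gene Sycn, a zymogen granule protein, stood apart between the classes, at 150510 to 387060 against 26633 to 137730. The water channel gene Aqp8 had the highest difference of the list, 2.21. Sdf2l1, an endoplasmic reticulum chaperone cofactor, was at −0.03 and Rab3d, a granule GTPase, at 0.20.

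Per unit of score, where a slope of 1 is proportional change, the median slope was 0.97 in the protease list and in the lipase, amylase and nuclease list. The transcription factors of acinar cells split. Rbpjl, the acinar partner of Ptf1a, ranged from 3618 to 9441 (median 5087) in acinar-rich and from 724 to 6023 (median 1464) in acinar-poor libraries, a difference of 1.82. Gata4 differed by 1.99, with 9 of 10 acinar-rich libraries above every acinar-poor one. Nr5a2, a nuclear receptor, differed by 1.57 and Ptf1a by 1.54. Bhlha15, which scales the secretory apparatus, ranged from 1030 to 2092 (median 1455) against 673 to 1878 (median 914), a difference of 0.64. Xbp1, the factor of the unfolded protein response, differed by 0.50, Gata6 by 0.01 and Foxa2 by −0.01. Xbp1 and Foxa2 are also known from islet cells. Over the 11 regulators the median difference was 0.64 and the median slope 0.37.

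Promoters of 4 enzyme genes are printed because they carry the letters of the site that the Ptf1a and Rbpjl complex is known to bind, an E-box (CANNTG) and a TTTCCC box a whole number of helix turns apart. Each line gives the 250 bases before the start of the gene, 5′ to 3′ on the strand of the gene, with the E-box, gap and TTTCCC box in capitals, from RefSeq on GRCm38.p6, which is not the build of the read counts. The windows are chr15:100687921-100688170 for Cela1 and chr8:111691011-111691260 for Ctrb1, both on the minus strand, chr6:41458680-41458929 for Prss1 on the plus strand, and chr2:28563404-28563653 for Cel on the minus strand. In Prss1 and Cel the pair lies on the other strand, so that it reads as its reverse complement.
Cela1: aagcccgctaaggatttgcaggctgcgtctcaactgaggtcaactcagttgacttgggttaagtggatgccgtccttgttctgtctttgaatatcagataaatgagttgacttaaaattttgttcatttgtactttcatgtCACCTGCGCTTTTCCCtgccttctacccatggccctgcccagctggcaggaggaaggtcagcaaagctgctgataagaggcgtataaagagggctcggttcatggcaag
Ctrb1: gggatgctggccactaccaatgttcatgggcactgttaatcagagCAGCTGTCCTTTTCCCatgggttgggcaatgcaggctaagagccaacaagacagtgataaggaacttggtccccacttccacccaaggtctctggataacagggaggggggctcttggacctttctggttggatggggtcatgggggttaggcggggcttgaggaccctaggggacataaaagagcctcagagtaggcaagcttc
Prss1: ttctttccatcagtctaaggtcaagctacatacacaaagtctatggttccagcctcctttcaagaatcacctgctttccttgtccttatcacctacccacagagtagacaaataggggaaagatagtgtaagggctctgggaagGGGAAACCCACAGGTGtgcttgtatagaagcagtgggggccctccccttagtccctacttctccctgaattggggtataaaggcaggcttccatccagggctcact
Cel: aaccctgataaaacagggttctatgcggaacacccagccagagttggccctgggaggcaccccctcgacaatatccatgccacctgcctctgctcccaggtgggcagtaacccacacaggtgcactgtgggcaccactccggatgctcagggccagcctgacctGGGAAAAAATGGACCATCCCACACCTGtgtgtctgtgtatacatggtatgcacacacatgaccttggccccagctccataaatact
The pair with a gap of 4 bases, CANNTGNNNNTTTCCC on either strand, was in 3 of the 40 secretory genes with a promoter in the table (7.5%), namely Cela1, Ctrb1 and Prss1. It was in 25 of all 27025 gene symbols (0.0925%). With a gap of 15 bases it was in Cel alone of the 40, and in 0.152% of all. Gaps from 0 to 19 bases were searched and these were picked after seeing the matches: 17 of the 20 gaps matched no secretory gene, and a gap of 19 matched Rap1gap. TTTCCC by itself was in 30% of the secretory genes and 24.4% of all, and CANNTG by itself in 85% and 69.3%. The matches are a description of letters and were not tied to binding in these islets.

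**Figure D2:**
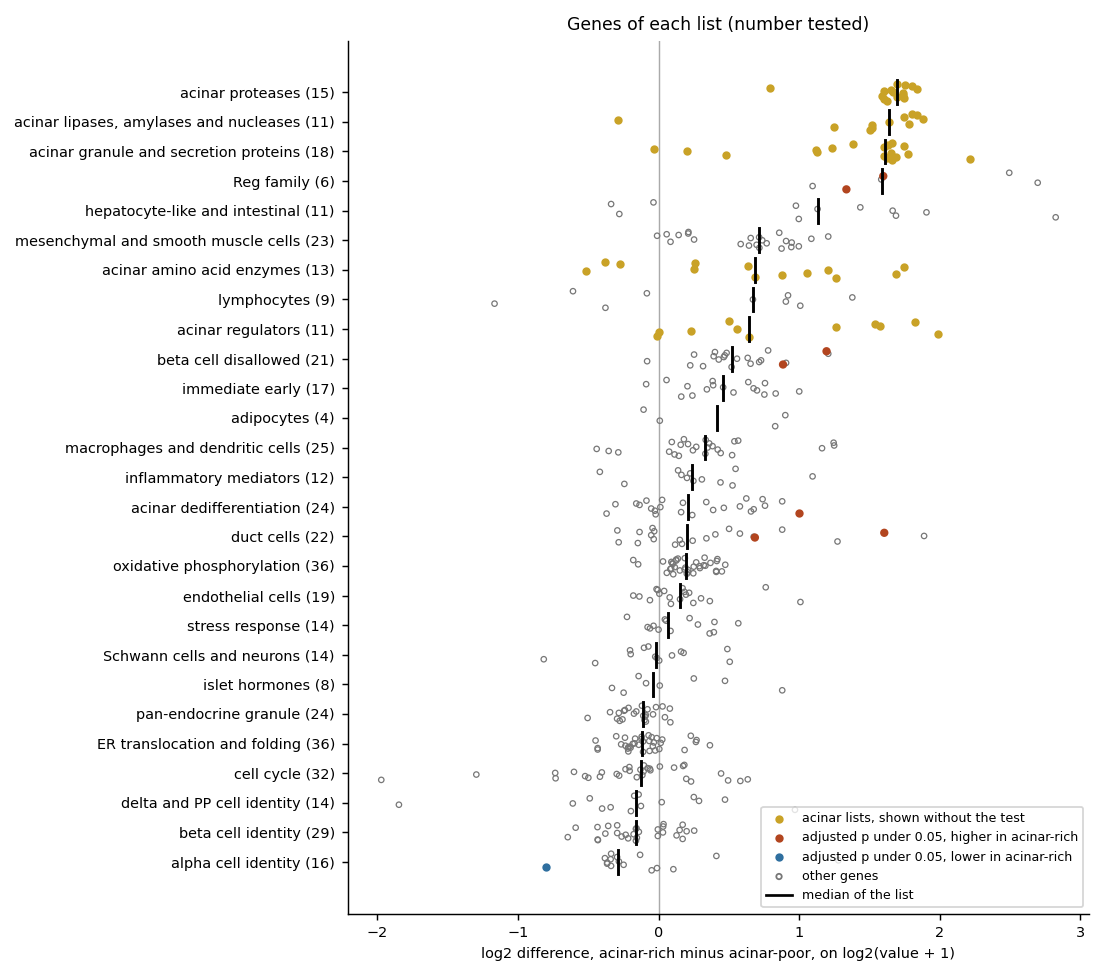
Each point is 1 gene, placed by its log2 difference between acinar-rich and acinar-poor libraries (x axis, on log2(value + 1)); rows are gene lists with the number of genes tested, and black bars are medians. The secretory lists sit near 1.6 to 1.7, most other lists near 0, and few genes outside the acinar lists are filled, that is past an adjusted p of 0.05.

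Acinar cells have a distinctive amino acid metabolism, and its genes also divided. Of 13 enzymes and carriers, 10 were higher, with a median difference of 0.69. Gamt, which makes creatine, differed by 1.69, Gatm, the step before it, by 1.05, and the glutamine carrier Slc38a3 by 1.75. The mitochondrial branched-chain aminotransferase gene Bcat2 differed by 1.26. The cationic amino acid carrier gene Slc7a2 (−0.38) and the cystine carrier subunit gene Slc3a1 (−0.27) were among those that were lower.

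Over all 17478 genes, 428 (2.45%) passed limma's test between the classes, with an adjusted p under 0.05. Of these, 354 (2.03%) were higher in acinar-rich libraries and 74 (0.423%) lower. The higher genes moved far and the lower ones little: 222 of the 354 differed by at least 2-fold, with a median of 1.28, whereas 5 of the 74 did, with a median of −0.54. Acinar lists held 47 of the 354 and none of the 74, and nothing is read from these counts, since the sort favours acinar genes. When values were scaled to the reads outside the secretory lists, the median of all genes moved to −0.31 and the split became 239 higher and 1295 lower. Quantile normalization gave 324 and 108. The direction of small differences is therefore relative to the deposited scaling. Without wild-type library 17 the total was 275. The number of lower genes was the less stable: it was 24 to 44 when any of knockout replicates 3, 5, 9 and 10 and wild-type libraries 12, 13, 14, 15, 17 and 19 was omitted. It was 122 to 124 when any of knockout replicates 2 and 7 and wild-type library 11 was. DESeq2 gave 572 higher and 223 lower. The acinar share of reads moves with every difference given here by the way the libraries were sorted, and its part in them was not tested.

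Outside the acinar lists, the largest rises were in genes of very different levels. Cdhr5, a protocadherin of microvilli, was at 11.6 to 675 (median 62.4) in acinar-rich libraries. It was at 0 in 8 of the 10 acinar-poor libraries and at most 30.8 in the others, a fitted difference of 5.29, which depends on the pseudocount. Its mean was 4.10 in acinar-poor libraries, so it met the filter on a mean of 10 only through the acinar-rich ones. Nothing is read from its passing. Serpinb1c, one of a family of near-identical serine protease inhibitor genes, rose by 2.85 (SE 0.58, limma adjusted p = 0.00774), from 5.13 to 317 (median 85.0) in acinar-poor to 187 to 1005 (median 370.3) in acinar-rich libraries. The zinc transporter gene Slc30a2 rose by 2.14 (limma adjusted p = 0.00526), from 23.6 to 520 (median 171) to 350 to 1374 (median 684). Homer2, a scaffold protein of calcium signalling, rose by 1.96 (limma adjusted p = 0.00364), with 7 of 10 acinar-rich libraries above every acinar-poor one. Dmbt1, a secreted scavenger glycoprotein of mucosal surfaces, rose by 1.92 (limma adjusted p = 0.00528), from 44933 to 314240 (median 100650) to 174470 to 848500 (median 429120). The calls of Serpinb1c, Slc30a2, Homer2 and Dmbt1 held whichever library was omitted, and that of Dmbt1 ended with quantile normalization. Per unit of score, Slc30a2, Homer2 and Dmbt1 had slopes of 0.94, 0.93 and 1.03, near the median of 0.97 of the acinar proteases. That of Serpinb1c was steeper, at 1.34. Whether acinar cells express the genes outside the lists was not tested. Their adjusted p says only that they followed the sort.

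Gls2, the liver-type glutaminase, rose by 1.95 (SE 0.31, limma adjusted p = 0.00355). It ranged from 2934 to 14825 (median 5814) in acinar-rich and from 825 to 4045 (median 1409) in acinar-poor libraries, with 7 of 10 acinar-rich libraries above every acinar-poor one. Sardh and Pipox, the mitochondrial dehydrogenase and the peroxisomal oxidase of sarcosine, rose by 1.77 and 2.10 (limma adjusted p = 0.00355 and 0.0214). Hkdc1, a hexokinase domain protein, rose by 2.05, Chrdl2, an antagonist of bone morphogenetic proteins, by 2.39, and Tsga10ip by 2.58 (limma adjusted p = 0.0292, 0.0345 and 0.0315). These 3 calls were less firm: omitting each of the 20 libraries in turn kept them 14, 12 and 13 times.

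The classes did not overlap at all in 7 genes (0.0401%), all higher in acinar-rich libraries, and in no gene the other way. These genes, singled out by their values, were Sycn, Sardh, Prpsap1, Pdk2, Grn, Tcea3 and Gm4737. Prpsap1, which associates with phosphoribosyl pyrophosphate synthetase, was at 3616 to 5502 against 2041 to 3567, a difference of 0.75 (limma adjusted p = 0.0022). Pdk2, a kinase that turns off pyruvate dehydrogenase, was at 1077 to 1451 against 540 to 1047, a difference of 0.72 (limma adjusted p = 0.00309). Grn, progranulin, was at 4818 to 6593 against 3754 to 4581, a difference of 0.48 (limma adjusted p = 0.00309). Tcea3, an elongation factor, was at 248 to 591 against 0 to 170, a difference of 3.17 that did not pass the test (SE 0.85, limma adjusted p = 0.0525).

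**Figure D3:**
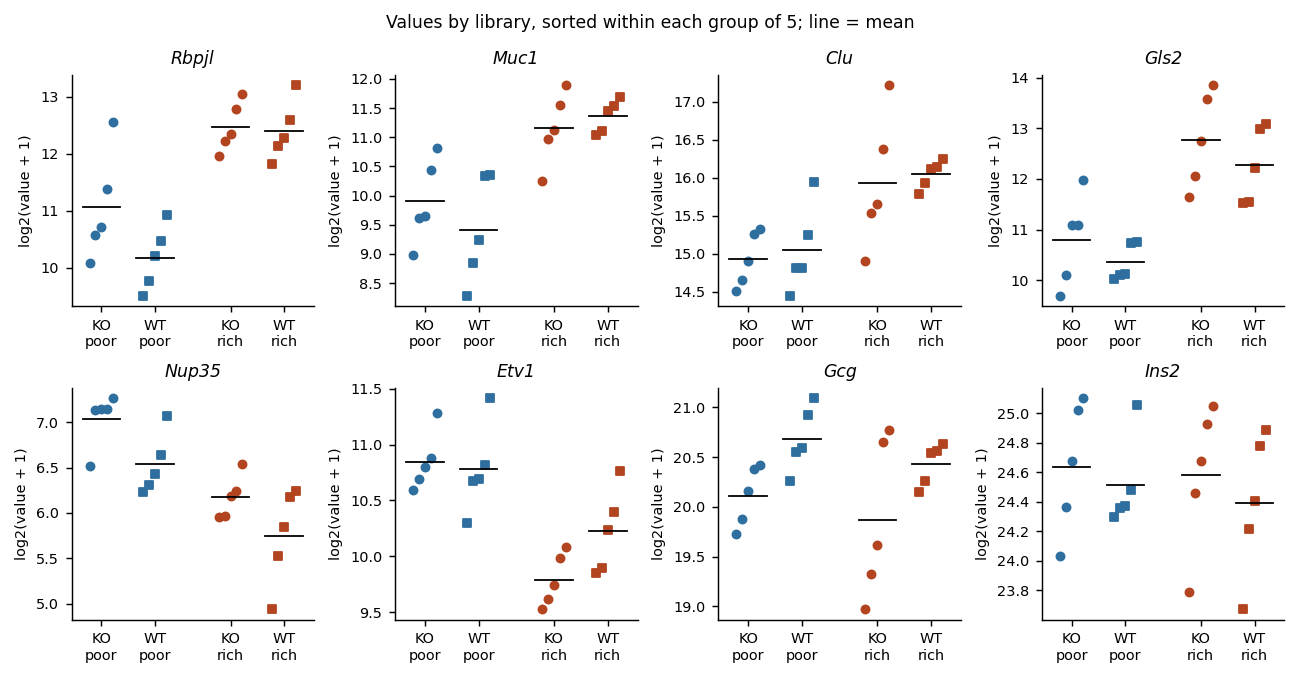
Each panel shows log2(value + 1) of 1 gene in all 20 libraries, in 4 groups of 5 (knockout and wild-type, acinar-poor in blue and acinar-rich in red), sorted within a group, with the group mean as a line. By group mean, Rbpjl, Muc1, Clu and Gls2 are higher and Nup35 and Etv1 lower in the acinar-rich groups of both genotypes, while the groups of Gcg and Ins2 overlap widely.

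Of the genes lower in acinar-rich libraries, Etv1, an ETS-family transcription factor placed on the alpha cell list, fell by 0.80 on the log2 scale (SE 0.15, limma adjusted p = 0.00526). It ranged from 737 to 1734 (median 981) in acinar-rich and from 1257 to 2729 (median 1719) in acinar-poor libraries, and 8 of 10 acinar-rich libraries lay below every acinar-poor one. Nup35, a nuclear pore protein, fell by 0.82 (limma adjusted p = 0.0137), from 73.9 to 152 down to 29.7 to 91.6. Both calls held whichever library was omitted. The sodium channel subunit gene Scn2b fell by 0.80, from 61.1 to 111 down to 30.7 to 70.8 (limma adjusted p = 0.0304). Stxbp4, which binds a syntaxin of membrane fusion, fell by 0.78, and the kinase gene Wnk3, a regulator of ion carriers, also by 0.80 (limma adjusted p = 0.0269 and 0.0466). The aldo-keto reductase gene Akr1c14 fell by 0.76 and the organic anion carrier Slco1a5 by 0.72 (limma adjusted p = 0.0429 for each). Zfp971, Zfp354c and Zfp442, zinc finger genes of large families whose reads can be split between copies, fell by 1.14, 0.88 and 0.81 (limma adjusted p = 0.0305, 0.0273 and 0.0445). Omitting each of the 20 libraries in turn kept the calls of these 8 genes only 6 to 14 times.

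None of 8 hormone genes passed the test, where 2.45% of all genes did, with a median difference of −0.04. Ins2, the main mouse insulin gene, ranged from 13377000 to 34661000 (median 24993000) in acinar-rich and from 17135000 to 36009000 (median 22554000) in acinar-poor libraries, a difference of −0.09 (SE 0.33). Ins1 was at 0.01 (SE 0.20), glucagon, Gcg, at −0.25 (SE 0.22), somatostatin, Sst, at −0.14 (SE 0.20) and pancreatic polypeptide, Ppy, at 0.47 (SE 0.43). Ghrelin, Ghrl, had the largest difference of the list, 0.88 (SE 0.35, limma adjusted p = 0.213), at 57.3 to 406 (median 204) in acinar-rich and 28.3 to 314 (median 116) in acinar-poor libraries. Amylin, Iapp, came closest to the threshold, at −0.33 (SE 0.12, limma adjusted p = 0.146), with 224560 to 398020 (median 280290) against 280680 to 477420 (median 348310). When values were scaled to the reads outside the secretory lists, the list median moved to −0.34 and the median of all genes, nearly as far, to −0.31. With quantile normalization the list median was −0.64 and that of all genes −0.04.

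The 8 hormone genes took 21.5% to 44.0% (median 34.6%) of the reads outside the secretory lists in acinar-rich libraries and 33.5% to 52.9% (median 45.3%) in acinar-poor libraries. The mean difference was −10.1 percentage points (two-sided exact permutation test within genotypes over 63504 arrangements, p = 0.00334, adjusted p = 0.00668 over 2 tests). The ranges of the classes overlapped. Without any single library it stayed between −11.3 and −8.65 points. On the scale of those same reads the median of all genes was also lower, at −0.31. Reads of other genes that rose with the sort, such as Dmbt1 and Reg1, stayed among those reads. The summed values of the 8 hormone genes had a median of 28078400 in acinar-rich and 25983100 in acinar-poor libraries. The share therefore cannot tell fewer hormone reads from more reads of such other genes.

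Of the lists of endocrine identity, 1 gene passed, Etv1, where 2.45% of all genes passed in either direction. In lists this short, no result about a list is read from that count. In the beta cell list 9 of 29 genes were higher, with a median of −0.16, and none passed. Rfx6, an islet transcription factor, was at −0.43 (SE 0.13, limma adjusted p = 0.0862), with 7 of 10 acinar-rich libraries below every acinar-poor one. G6pc2, the glucose-6-phosphatase of beta cells, was at −0.65 (limma adjusted p = 0.13). Against the continuous score, 4 of the 29 passed with a negative slope, where 3.85% of all genes did. Of the 16 alpha cell genes Etv1 fell and 3 were higher, with a median of −0.29, and 4 passed with a negative slope, among them Slc7a2, which is also on the acinar amino acid list. The lists of delta and PP cells (14 genes, median −0.16) and of the pan-endocrine granule (24 genes, median −0.11) held no gene past the threshold, against the same 2.45%. In the latter, the prohormone convertase gene Pcsk1 was at −0.50 (SE 0.18, limma adjusted p = 0.16). Of 21 genes known to be kept low in beta cells, 20 were higher, against 47.0% of all genes, with a median of 0.52. That median was 0.25 in knockout and 0.88 in wild-type islets. The sort favours genes that acinar cells express, and whether they express these was not tested, so no change in beta cells is read from them. Catalase, Cat, and the sulfurtransferase gene Tst passed, where 2.03% of all genes were called higher (0.89 and 1.19; limma adjusted p = 0.022 and 0.0342). Cat ranged from 397 to 1258 (median 739) in acinar-rich and from 192 to 700 (median 391) in acinar-poor libraries. Tst ranged from 144 to 688 (median 369) against 70.8 to 296 (median 173), and its call was kept 10 times of 20 when each library was omitted. The call of Cat ended under scaling to the reads outside the secretory lists.

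Of 22 genes of duct cells, the other exocrine cell type, 14 were higher, with a median of 0.20, and 2 passed, where 2.03% of all genes were called higher. Under scaling to the reads outside the secretory lists the duct median was −0.09 and that of all genes −0.31. Muc1, an apical mucin also made by acinar cells, rose by 1.61 (SE 0.28, limma adjusted p = 0.00446), from 310 to 1812 (median 793) in acinar-poor to 1221 to 3807 (median 2516) in acinar-rich libraries. Its passing is not read as a result about duct cells, since the sort favours genes that acinar cells express. The keratin gene Krt18 rose by 0.69 (limma adjusted p = 0.0392), a call that ended under that scaling and was kept 7 times of 20 when each library was omitted. Sox9, the duct transcription factor, was at 0.88 (SE 0.31, limma adjusted p = 0.157), and Spp1, osteopontin, at 0.50 (SE 0.41). The ranges of the whole duct list overlapped, with summed values of 37331 to 100020 in acinar-rich and 30576 to 95021 in acinar-poor libraries.

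Regenerating-gene proteins are secreted by acinar cells and induced by pancreatic injury. All 6 Reg genes were higher, with a median of 1.59, and 2 passed, where 2.03% of all genes were called higher. Nothing is read from their passing, since the sort favours genes that acinar cells express. Reg1 rose by 1.34 (SE 0.30, limma adjusted p = 0.0188; the call ended with quantile normalization), from 21689 to 147970 (median 58867) to 81542 to 346210 (median 144050). Reg3d rose as well (limma adjusted p = 0.0135), from 800 to 4661 (median 1989) to 3270 to 16572 (median 4774). Reg3a and Reg3g had larger differences, 2.70 and 2.49, that did not pass (limma adjusted p = 0.246 and 0.166). Reads of this family of close copies can be split between members. Clu, clusterin, a secreted chaperone, passed as 1 of 24 genes of acinar dedifferentiation, a share near the 2.03% of all genes, with a rise of 1.00 (SE 0.23, limma adjusted p = 0.0199), from 22342 to 63109 (median 29769) to 30549 to 152320 (median 66716). The median of that list was 0.21, and −0.09 under scaling to the reads outside the secretory lists, where that of all genes was −0.31.

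Other cell types of the islet surroundings held no gene past the threshold, where 2.45% of all genes passed. Mesenchymal and smooth muscle genes were higher in 22 of 23 cases, against 47.0% of all genes, with a median of 0.72, but varied strongly between libraries. Col1a1, a collagen of fibroblasts, ranged from 307 to 4273 (median 2046) in acinar-rich and from 56.9 to 4896 (median 903) in acinar-poor libraries (1.00, SE 0.61). The list's median was 0.12 in knockout and 1.23 in wild-type islets. Macrophage and dendritic cell genes were higher in 22 of 25 cases, with a median of 0.33, endothelial genes in 14 of 19 (median 0.15), and Schwann cell and neuron genes in 6 of 14 (median −0.02). Lymphocyte genes had a median of 0.67 over 9, adipocyte genes 0.42 over 4, and inflammatory mediators 0.24 over 12. Under scaling to the reads outside the secretory lists the endothelial median was −0.14 and the inflammatory −0.04, both above the −0.31 of all genes. The B cell gene Cd79a was at 0.91 (SE 0.31, limma adjusted p = 0.143), at 16.5 to 102 against 10.3 to 42.3. Hepatocyte and intestinal genes had a median of 1.13 over 11 genes, none past the threshold. Among them the apolipoprotein gene Apoa1 was at 0 in 6 acinar-poor libraries and at up to 937 in the acinar-rich.

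Among cellular programmes shared by exocrine and endocrine cells, no gene passed between the classes, where 2.45% of all genes did. Genes of translocation into the endoplasmic reticulum and folding had a median of −0.12 over 36, stress response genes 0.07 over 14 and cell cycle genes −0.12 over 32. Under scaling to the reads outside the secretory lists the stress median was −0.23, where that of all genes was −0.31. Among the first, the disulfide isomerase gene P4hb was at 0.37 (SE 0.15) and the translocon-associated gene Ssr3 at −0.30 (SE 0.09). Against the continuous score, 4 of the 36 passed with a positive slope, P4hb among them (0.26, limma adjusted p = 0.00057), and 2 of the 14 stress genes did, where 6.73% of all genes did. These 2 were Asns, asparagine synthetase, with 0.30 (limma adjusted p = 0.000216), and Phgdh, the first enzyme of serine synthesis, with 0.43 (limma adjusted p = 0.000122). Of 36 oxidative phosphorylation genes 34 were higher, against 47.0% of all genes, with a median of 0.20. That median became −0.10 under scaling to the reads outside the secretory lists, where the median of all genes was −0.31. Uqcrc1, a subunit of respiratory complex III, came closest to the threshold, at 4600 to 7892 (median 5507) against 3279 to 5260 (median 4084), a difference of 0.42 (SE 0.12, limma adjusted p = 0.0629). With the score as a continuous covariate, 18 of the 36 oxidative phosphorylation genes had a positive slope past the threshold, where 6.73% of all genes did. These slopes are on the deposited scaling and were not recomputed under the other. Of 17 immediate early genes, which respond to stimulation within minutes, 16 were higher, with a median of 0.46, and none passed. Fos ranged from 2087 to 15630 (median 6945) in acinar-rich and from 2111 to 23689 (median 3785) in acinar-poor libraries. Myc was at 0.76 (SE 0.26, limma adjusted p = 0.132).

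Variable segments of the T cell receptor beta chain appeared among the genes that followed the sort. A set of 18 such genes rose, by 1.82 each (limma adjusted p = 0.00526). Trbv13-1, on chromosome 6, ranged from 18454 to 63141 (median 40872) in acinar-rich and from 3633 to 26998 (median 9240) in acinar-poor libraries. The locus of the receptor's beta chain also holds the trypsinogen genes, as a matter of gene order. The counts of the 18 genes were not separate measurements. In every library they were 2, 4, 5 or 6 times a shared number that ranged from 475 to 14592 over the libraries, within 0.103%, with the factor 5 in 14 genes, 2 in 2, 4 in 1 and 6 in 1. Markers of T cells were at or near 0. Cd3e had a median of 0 in both classes and was at 0 in 14 of 20 libraries, and the T cell receptor alpha constant gene Trac had medians of 1.57 and 8.87. Counts with a shared factor in all libraries were found in 320 of the 12639 genes with a mean of over 100 reads (2.53%), so shared factors were not limited to this locus. Without the variable segment genes, 395 genes passed, and with identical count rows tested once, 406 did, both chosen as alternatives after seeing the data.

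**Figure D4:**
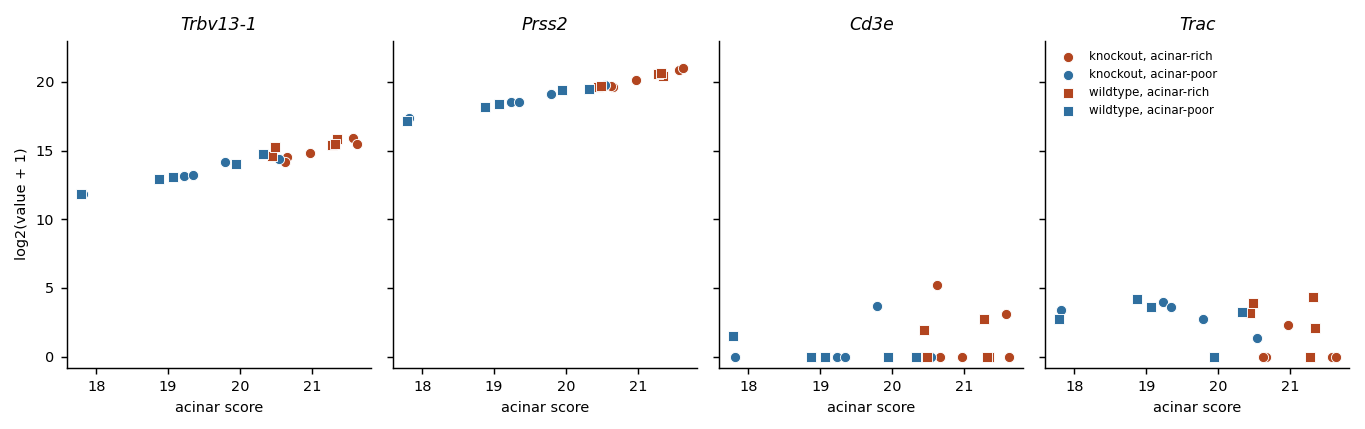
Each point is 1 library, with the acinar score on the x axis and log2(value + 1) of the named gene on the y axis, which is the same in all panels. Trbv13-1 climbs with the score as the trypsinogen gene Prss2 does, while the T cell genes Cd3e and Trac lie near the bottom of the axis in all 20 libraries.

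The contrast was then taken within each genotype, which share no library. Over all genes, 65.8% had the same sign of difference in knockout and wild-type islets. Within wild-type islets 16 genes (0.0915%) passed, all higher in acinar-rich libraries. Examples from the set were picked after their values were seen. They were the tight junction gene Cldn10 (1.69), the glycine transporter gene Slc6a9 (1.65) and the transcription factor gene Tead2 (1.90). All 16 were also positive in knockout islets, at 0.15 to 4.68. Cdhr5 (5.90) was in the set, but every wild-type acinar-poor library was at 0 for it, so nothing is read from its passing. Rbpjl and Nr5a2, of the acinar lists, were in it too, and nothing is read from their passing, since the sort favours them. Within knockout islets no gene passed (0%) by limma or edgeR, with 1309 at an unadjusted p under 0.05 and 138 past the adjusted p in DESeq2. The wild-type count moved between 0 and 147 when 1 library was left out: it was 0 without library 12, 13, 15, 18 or 19, 1 without 14 or 17, 29 without 11, 104 without 20 and 147 without 16. A test of the difference between genotypes found no gene (0%) by limma or edgeR, with 411 at an unadjusted p under 0.05 and 3 in DESeq2. Those 3, Aire, Ankrd55 and Ces1h, were singled out by their values and had fitted differences beyond 20 on the log2 scale in size, which come from groups at 0.

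**Figure D5:**
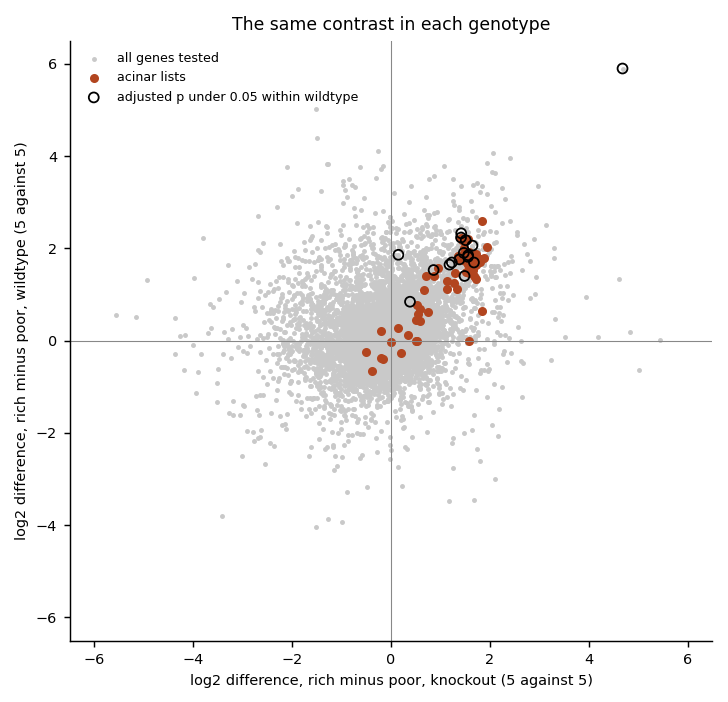
Each point is 1 gene, with its log2 difference between acinar-rich and acinar-poor libraries in knockout (x axis) and wild-type islets (y axis), 5 libraries against 5 in each. Most genes of the acinar lists lie in the upper right, some near 0, and all 16 genes past the threshold within wild-type islets (open circles) lie to the right of 0.

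P2ry14 itself leaned the same way. Its difference did not pass (SE 0.53, limma adjusted p = 0.215) and was positive in knockout (1.70) and in wild-type islets (0.89). Against the continuous score with genotype as a covariate, its slope was 0.84 per unit of score (limma adjusted p = 0.008). Knockout replicate 5 was the only library at 0 for P2ry14. It had the lowest score of the knockout libraries and the fewest reads of all, 34520628. The knockout difference and the slope therefore depend on the pseudocount. The lowest value of each genotype was in an acinar-poor library and the highest in an acinar-rich one.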

How the data were processed

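RNA-seq of 20 mouse islet libraries used unstranded TruSeq RNA v2 libraries, per the labels' protocols. The deposited signal values are read counts per gene that the authors normalized. FastQC, TopHat 1.3.3, Bowtie 0.9.9, Cufflinks 1.3.0, DESeq 1.16.0 and the build mm9 are listed, without roles, per the submitters' processing notes. Of the deposited values, 100% were whole reads within 0.05 after multiplication by a size factor per library. Of 26211 gene identifiers, 23950 matched a symbol.

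Classes were compared on log2(value + 1) with limma 3.58.1 (R 4.3.3), genotype as a covariate, over the 17478 genes whose mean reached 10, leaving out the 4 score genes. P-values were adjusted over all of these by the Benjamini-Hochberg method, with a threshold of 0.05. The classes also served in exact permutation tests within genotypes (Python 3.11.15, numpy 2.4.6). Alternatives used DESeq2 1.42.0 and edgeR 4.0.16 on those recovered counts, other scalings, filters and pseudocounts, and each library left out. The code was tested on simulated data. Depth ranged from 34520628 to 199847246 reads, so the spread between libraries, not counting error, limits most values.

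The genes named come mainly from the 10 higher and 10 lower protein-coding genes outside the acinar lists with the largest change among those called with a mean of at least 50, up to 4 genes of each list by smallest p and the one with the highest mean, and the hormone genes and P2ry14. Which of these are named, and the other genes named, were chosen after their values were seen. The classes, score genes and lists were chosen with earlier results of these data known.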

Additional observations from a re-analysis of the deposited data

Results flagged for a closer look

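Within each class of 10 libraries, 174 sets of values were examined for a highest or lowest library far from its nearest neighbour, and 24 were flagged. The cutoff flags about 1 in 20 sets of normally distributed values. It was applied to untransformed values, many of them skewed, so the 24 cannot be set against that rate. All 24 flags were for a highest library. Knockout replicate 3, the acinar-poor library next to the class boundary, was the highest acinar-poor library for Rbpjl at 6023, Nr5a2 at 306.5, Bhlha15 at 1878 and Gls2 at 4045. Wild-type library 20 was the highest acinar-poor library for Clu at 63109, Col1a1 at 4896, the endothelial gene Pecam1 at 24576, and the immediate early genes Myc at 2097, Ier2 at 2925 and Fos at 23689. Knockout replicate 4 was the highest acinar-poor library for Cdhr5 at 30.81, Reg3g at 86.88, Reg3a at 1557 and Cd3e at 11.56. Knockout replicate 9 was the highest acinar-poor library for Ppy at 425938, and wild-type library 19 for Rfx6 at 8691.

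Among acinar-rich libraries, knockout replicate 6 was the highest for Hkdc1 at 293, Reg1 at 346207 and Clu at 152321. Knockout replicate 10 was the highest for the fibroblast gene Dcn at 16628 and for Apoa1 at 936.9. Knockout replicate 2 was the highest for Ptf1a at 686.1, knockout replicate 7 for Iapp at 398020 and knockout replicate 8 for Cd3e at 35.79.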

How the results depend on the processing

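Of the 428 genes past the threshold, counts under other settings stayed within 1.5 times except for scaling to reads outside the acinar secretory lists (1534), DESeq2 (795), the score as a continuous covariate (1850) and the fit without wild-type library 17 (275). The range over fits that left out each library was 275 to 571. Within wild-type islets the count of 16 became 31 with a pseudocount of 10, 1 without a filter on low values, 46 with a mean of at least 100, 30 with quantile normalization, 410 with DESeq2, and 0 to 147 when each library was left out. Within knockout islets the count of 0 became 6 without a filter, 138 with DESeq2, and 0 to 2 when each library was left out. The test between genotypes gave 3 genes with DESeq2 and 0 in the other fits. The depth difference ranged from −15115661 to 3253963 reads when each library was left out. For named genes, 3807 of 4021 recomputed values kept their side of the threshold and, where not called, stayed within a set margin of the main value. The sign changed in 50 recomputed values, all of genes not called, and no called gene changed sign. The cause of the changes was not tested. No paired analysis was possible because the wild-type columns are numbered on from the knockout columns and share no replicate number with them, and the classes have none.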
